A study of Mus musculus with 18 samples.

Results

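The clustered protocadherins are 58 genes in 3 neighbouring arrays on mouse chromosome 18, chosen here as every gene of the RefSeq table on that chromosome whose symbol begins with Pcdha, Pcdhb or Pcdhg. They are 58 of 49943 genes in the table on chromosomes 1 to 19, X and Y, and 57 of them are protein-coding, the exception being the transcribed pseudogene Pcdhgb8. There are 14 alpha genes (mm10 chromosome 18, 36930285 to 37188897), 22 beta genes (37264998 to 37521419) and 22 gamma genes (37661775 to 37841873). The gamma array holds 12 members of the A type, 7 of the B type and the C-type members Pcdhgc3, Pcdhgc4 and Pcdhgc5, and the alpha array holds 12 alternate members and the C-type members Pcdhac1 and Pcdhac2. The study mapped the histone marks H3K4me3 and H3K27ac in mouse embryonic stem cells of a C57BL/6 background, which the labels call Mettl3_Control, Mettl3_KO1 and Mettl3_KO2, after the gene for the catalytic core of the methyltransferase that places N6-methyladenosine on RNA. All cells grew in serum with LIF and the inhibitors CHIR99021 (GSK3) and PD0325901 (MEK). Each genotype and mark has 2 replicate libraries with a peak list each, 12 in all, and the other 6 of the 18 samples are input chromatin, not analysed here. How the knockouts were made, and whether a line is 1 clone, the sources used here do not say. They also do not tie replicates to separate cultures, and p-values below then reflect only library-to-library spread, which may be technical.

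Clustered protocadherins are cell-surface adhesion proteins that give neurons their identity. In the alpha and gamma arrays each member has its own promoter and its own large first exon (the variable exon), which is spliced to constant exons shared by the whole array, whereas a beta gene is a single exon. Alternate promoters are chosen at random in neurons through CTCF, cohesin and distant enhancers, while C-type promoters follow other rules. H3K4me3 marks promoters, and H3K27ac marks active promoters and enhancers.

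Peak coverage, the percent of a 2001-bp window centred on a member's start that lies inside peaks, is the measure used at starts. A start was taken as the gene end that a member does not share with the rest of its array. Read totals are unknown. The pileup at the summits of H3K4me3 peaks at alternate and gamma A and B starts, recovered from the authors' fold and p, had medians of 13 fragments (alternate alpha), 27 (gamma A) and 21 (gamma B). In KO2 replicate 1 only 14.3% of H3K4me3 pileups were whole numbers, against 100% in every other H3K4me3 list. Its values are then not plain fragment counts. Variable exons of one array resemble each other, and the sources used here do not say how reads fitting several members were placed. These libraries also pool many cells, so a smaller share of cells with the mark and less mark per cell cannot be told apart.

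H3K27ac peaks covered 1.28 times the Control length in KO1 and 2.50 times in KO2, and H3K4me3 peaks 0.802 and 0.801 times. The background of chromosome 18 relative to the other autosomes was 1.05 to 1.08 in Control, 1.13 to 1.15 in KO1 and 1.03 to 1.05 in KO2 over both marks. The window at the gene end taken as the start of Mettl3, the targeted gene, had no peak of either mark in any library and is no readout of the knockout. Of 10 embryonic stem cell markers, 9 had peaks of both marks at their starts in all 6 libraries of each mark, and the Esrrb window was at 0. All these windows sit at the outer end of a gene model and would miss a promoter inside it. A 0 is then no readout of the gene's promoters, for Esrrb as for Mettl3.

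H3K4me3 divided the 3 arrays. Gamma starts carried it widely, with a peak in at least 1 library at 22 of 22 and in all 6 at 18. Alpha starts carried it sparsely, at 9 of 14 in any library and at 2 in all 6, namely Pcdha1 and Pcdhac2. None of the 22 beta starts had a peak in any library. Over all members, 24.5 ± 0.707 starts had a peak in Control, 26.0 ± 0 in KO1 and 23.5 ± 0.707 in KO2 (mean ± SD, n = 2 libraries, as in all values of this form below). Among 17492 protein-coding starts for which strand is known, none of them on chromosome 18, 57.7% to 59.2% had an H3K4me3 peak, and the median coverage of those with a peak was 56.9% to 60.2%.

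**Figure D1:**
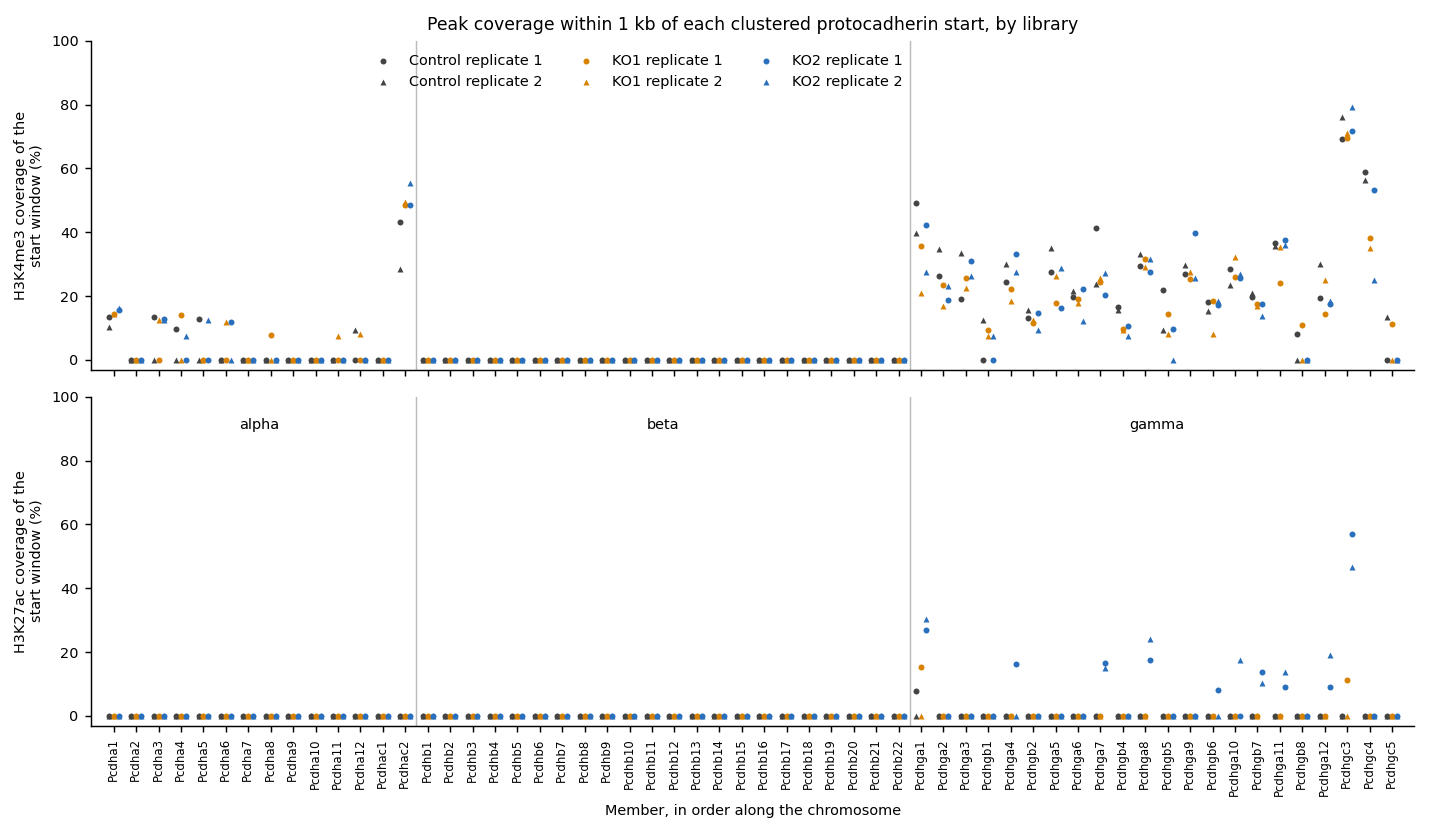
Percent of the 2001-bp start window covered by H3K4me3 (top) and H3K27ac (bottom) peaks for the 58 members in chromosome order, with 1 point per library and vertical lines between the arrays. H3K4me3 fills the gamma array and is 0 at all 22 beta starts, and H3K27ac points above 0 lie in the gamma array alone, mostly from KO2.

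Gamma A starts had broader H3K4me3 than gamma B starts. Mean coverage over the 12 gamma A starts was 30.01% ± 1.29 in Control, 24.5% ± 0.474 in KO1 and 26.9% ± 1.21 in KO2, and over the 7 gamma B starts it was 13.4% ± 0.818, 11.1% ± 2.92 and 9.02% ± 1.32. The A mean was above the B mean in 6 of 6 libraries, by 1.84 to 3.21 times. Averaged over the 6 libraries, the lowest gamma A member, at 18.7%, was above the highest gamma B member, at 17.8%. Within single libraries the ranges of the 2 types overlapped or touched in 5 of 6. Gamma A and B genes are interspersed along the array, and the cause of their difference was not tested.

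Peaks at these starts pointed into the gene. Of 107 first peak edges at gamma A and B starts, 93.5% lay within 100 bp of the start and the median edge was 7 bp after it. All summits at gamma A and B starts lay on the gene side, with medians of 244 bp (A, 75 peaks) and 112 bp (B, 37 peaks). The median width was 529 bp at A starts and 249 bp at B starts, and the median fold over background, the authors' value for each peak, was 8.53 and 6.32. C-type starts differed in form, since 67.6% of their 34 peaks had the summit after the start and the rest before it. The 21 peaks at alternate alpha starts were as narrow as those of gamma B (251 bp) and weaker (4.75-fold).

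**Figure D2:**
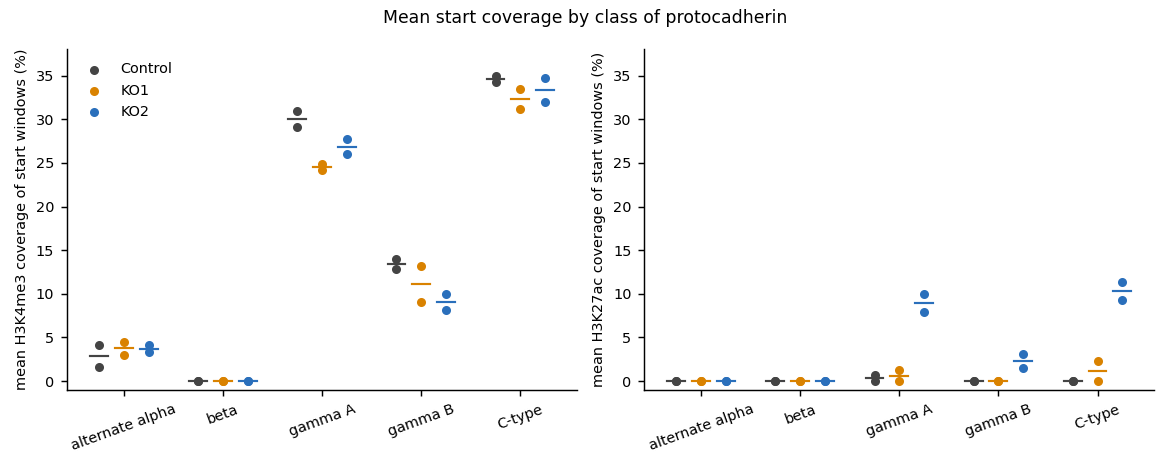
Mean coverage of start windows by class of member, with H3K4me3 at left and H3K27ac at right; each point is a library, and the bars are means of 2. Gamma A lies above gamma B for H3K4me3 in every library, and beta is at 0 for both marks.

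The C-type members covered the whole range. Pcdhgc3 had the most H3K4me3 of all members, where Control libraries had 69.1% and 76.3%, KO1 libraries 69.5% and 71.1%, and KO2 libraries 71.7% and 79.2%. Pcdhgc4 had 59.0% and 56.5% (Control), 38.2% and 35.0% (KO1), and 53.3% and 25.1% (KO2). Every knockout library of Pcdhgc4 was below both Control libraries, and the KO2 pair was the widest. Pcdhac2, the last alpha member, had 43.1% and 28.6% in Control cells, 48.5% and 49.4% in KO1 cells, and 48.7% and 55.4% in KO2 cells, and all 4 knockout libraries exceeded both Control libraries. Pcdhgc5, the last gamma member, had 0% and 13.5%, 11.1% and 0%, and 0% and 0%. Pcdhac1 was at 0 in all 6. The neighbouring genes Pcdhac1 and Pcdhac2 thus differed in every library.

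Among alternate members, Pcdhga1, the first of the gamma array, had 49.1% and 39.8% (Control), 35.7% and 20.9% (KO1), and 42.3% and 27.6% (KO2). Both KO1 libraries were below both Control libraries, and KO2 overlapped them. Pcdhga11, the alternate member with the next highest mean, had 36.8% and 35.6%, 24.1% and 35.3%, and 37.6% and 36.1%. Pcdhga1 and Pcdhga11 did not differ beyond their spread between libraries. Pcdha1, the first of the alpha array, stood at 13.6% and 10.4%, 14.4% and 14.4%, and 15.7% and 16.4%, the tightest values of any alternate alpha member with a peak. The first and last beta genes, Pcdhb1 and Pcdhb22, were at 0 in all libraries. The other alpha members with a peak, Pcdha3, Pcdha4, Pcdha5, Pcdha6, Pcdha8, Pcdha11 and Pcdha12, had one in 1 to 4 libraries and at most 14.1% coverage.

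Of the 58 members, 24 had enough H3K4me3 to be tested (averaging 5% or more across libraries), 4 of them alpha and 20 gamma. In limma with Benjamini-Hochberg adjustment over 14773 gene-end windows, 0 of 24 were called at an adjusted p under 0.05 in KO1, 0 in KO2 and 0 in the mean of both lines, where the calls over all windows were 0.0338%, 0.0474% and 0.0271%. At an unadjusted p under 0.05 there were 0, 1 and 3 members, beside 11.8%, 16.4% and 14.5% of all windows. Neither the 0 calls nor these counts set the members apart from other genes. The 3 members were Pcdhac2, with a difference of 14.6 points ± 4.89 (SE) in the mean of both lines (limma adjusted p = 0.271), Pcdhgc4 with −19.8 points ± 7.84 (0.338) and Pcdhga2 with −9.995 points ± 4.001 (0.344). The median difference of the 24 was −2.74 points in KO1 and −2.19 in KO2, beside −0.52 and 0.00 over all windows.

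Most gamma starts had a lower mean coverage in the knockouts without a call. The mean was lower than in Control at 19 of 22 gamma starts in KO1, beside 53.1% of all gene ends with a peak, and at 15 of 22 in KO2, beside 49.1%. Both KO1 libraries lay below both Control libraries at 10 of 22 gamma starts, beside 21.8% of all gene ends with a peak, and both KO2 libraries did at 5 of 22, near the 21.2% of all gene ends. None of the 22 lay above both Control libraries in either line. At alpha starts both libraries of a line were above both Control libraries at 2 of the 9 with a peak in each line (15.6% of gene ends in KO1 and 21.3% in KO2). Those members were Pcdha1 and Pcdhac2.

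H3K27ac was absent from alpha and beta starts in all 6 libraries, and at gamma starts it lay nearly only in KO2. The number of members with a peak was 0.500 ± 0.707 in Control, 1.00 ± 1.41 in KO1 and 8.50 ± 0.707 in KO2. In all, 10 of 58 members had a peak in any library and 48 had none. The 10 were 7 gamma A members (Pcdhga1, Pcdhga4, Pcdhga7, Pcdhga8, Pcdhga10, Pcdhga11 and Pcdhga12), the gamma B members Pcdhgb6 and Pcdhgb7, and Pcdhgc3. All 10 also carried H3K4me3 in all 6 libraries. High H3K4me3 did not always come with it, since Pcdhgc4 and Pcdhac2 had no H3K27ac at their starts in any library. Among the 17492 other starts, 31.8% to 33.4% had H3K27ac in Control, 37.9% to 38.4% in KO1 and 47.8% to 48.0% in KO2.

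Pcdhgc3 had the highest H3K27ac, with 0% in both Control libraries, 11.4% and 0% in the KO1 pair, and 57.0% and 46.5% in the KO2 pair. Pcdhga1 had 7.85% and 0% in Control cells, 15.2% and 0% in KO1 cells, and 26.9% and 30.2% in KO2 cells. At both, each KO2 library exceeded the other 4. Outside KO2, a short peak was found in KO1 replicate 1 at both starts and in Control replicate 1 at Pcdhga1. Recovered H3K27ac pileups were whole numbers at 4.69% of peaks in Control replicate 1, 4.46% in KO1 replicate 1, and 5.73% and 12.3% in KO2. In Control replicate 2 and KO1 replicate 2 the share was 100%, and no member start had H3K27ac there. Any bearing of this difference between lists on the start peaks was not tested. Pcdhga8 was at 0 in all Control and KO1 libraries and at 17.5% and 24.1% in KO2. Pcdhga7 was likewise at 0 outside KO2, where it had 16.5% and 15.1%. The same held for Pcdhga12, with 9.0% and 19.1%. Both KO2 libraries were above both Control libraries at 7 of the 10 members, where 83% of all gene ends with a peak were.

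The 4 members Pcdhgc3, Pcdhga1, Pcdhga8 and Pcdhga7 reached the coverage needed for a test, and they did so through KO2, so their number carries no weight of its own. In KO2 all 4 were called higher in limma, beside 80.1% of 10943 gene-end windows. Pcdhgc3 rose by 51.7 points ± 5.73 (SE; adjusted p = 0.00167). Pcdhga1 rose by 24.7 ± 5.91 points (0.0119), Pcdhga8 by 20.8 ± 3.05 (0.00285) and Pcdhga7 by 15.8 ± 2.23 (0.00259). The median difference over all windows was 25.4 points, so that Pcdhgc3 was above it and the 3 gamma A members below it. In KO1 none of the 4 was called, as 0% of all windows were, and none had an unadjusted p under 0.05. In the mean of both lines 3 of 4 were called, Pcdhga1 being the exception (limma adjusted p = 0.0597), beside 52.6% of all windows. Without either one of the Control replicates 0 were called, as 0% of all windows were. Set directly against KO1, KO2 was higher at 4 of 4, beside 62.3% of all windows, and here too the 4 had entered the test through KO2.

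Quantile normalization, which gives the 6 libraries one distribution of coverage, left the rise of Pcdhgc3 in KO2 at 25.5 points (limma adjusted p = 0.0409) and turned those of Pcdhga1, Pcdhga7 and Pcdhga8 to −0.67, −2.11 and −0.11 points. Of all windows 3.87% were then called higher in KO2. The call of Pcdhga1 in KO2 also ended without Control replicate 2 (20.7 points, limma adjusted p = 0.0692), KO2 replicate 1 (26.3 points, 0.0838) or KO2 replicate 2 (23.0 points, 0.107), with a difference close to that over all libraries. Pcdhgc3 kept its KO2 call in each alternative that could be run with all Control and KO2 libraries. There 60.5% to 87.1% of all windows were called higher in KO2, apart from quantile normalization. Pcdhgc3 had entered the test through its KO2 values, so this persistence carries no weight of its own.

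A few markers of other cell types had more H3K27ac in KO2 too, where 80.1% of all gene-end windows were called higher in limma. Summed coverage over 8 fibroblast markers was 74.9 to 79.3 points in Control, 91.4 to 98.7 in KO1 and 159 to 164 in KO2, with 6 at 0 in all libraries (Col1a1, Col1a2, Col3a1, Thy1, Postn and Twist2). Over 6 primitive endoderm markers it was 11.6 to 17.2, 10.1 to 38.98 and 100 points, with 5 at 0 (Gata4, Gata6, Sox17, Sox7 and Dab2) and Sparc the only one with a peak. No strand was known for Col1a1, Thy1, Gata4, Gata6, Sox17 and Sox7, so their windows may sit at the wrong gene end and a 0 there shows little. The 10 stem cell markers summed to 626 to 653, 650 to 655 and 822 to 828 points. The part of other cells in the KO2 values of the gamma starts was not tested.

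Over whole arrays, H3K27ac covered 5.35 kb ± 0.786 of the gamma array in Control, 8.41 kb ± 0.744 in KO1 and 18.03 kb ± 0.993 in KO2. Every knockout library was above both Control libraries. The mean of the 4 knockout libraries was 1.14 higher on the log2(bp + 500) scale, 0.61 in KO1 and 1.67 in KO2 (2-sided exact permutation over 15 assignments, p = 0.133; the smallest possible is 0.0667). Per Mb covered by the whole list, the gamma array held 369 bp ± 49.5 in Control, 454 bp ± 3.53 in KO1 and 497 bp ± 12.3 in KO2. Within the array, length therefore grew more than that of the list by this measure, with all 4 knockout libraries above both Control libraries. With 50 kb added on each side the values were closer, at 713 bp ± 6.60, 734 bp ± 42.9 and 754 bp ± 12.7. There KO1 replicate 2 (704 bp) lay below both Control libraries (708 and 717 bp). The 50 kb after the array went the other way, at 258, 214 and 196 bp, as did the gap between beta and gamma, at 86.4, 66.7 and 62.8 bp.

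H3K4me3 over the gamma array was 27.7 kb ± 1.196 in Control, 22.7 kb ± 2.97 in KO1 and 23.98 kb ± 3.21 in KO2. The log2 difference was −0.25 (exact permutation p = 0.133). Per Mb of list the values were 483 bp ± 31.9, 494 bp ± 54.5 and 523 bp ± 2.77, so the direction turned (log2 0.08, exact permutation p = 0.467). The alpha array had 1.63 kb ± 0.847, 2.15 kb ± 0.202 and 2.73 kb ± 0.148 of H3K4me3, less than the gamma array in every library. Its log2 difference was 0.52 (exact permutation p = 0.133), and per Mb of list it had 28.3 bp ± 14.1, 46.7 bp ± 3.42 and 60.3 bp ± 10.99. Much of this length is the Pcdhac2 peak, of 573 to 1108 bp. The beta array had 321 and 484 bp of H3K4me3 in Control, none in KO1, and 189 and 186 bp in KO2, and no H3K27ac in any library.

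**Figure D3:**
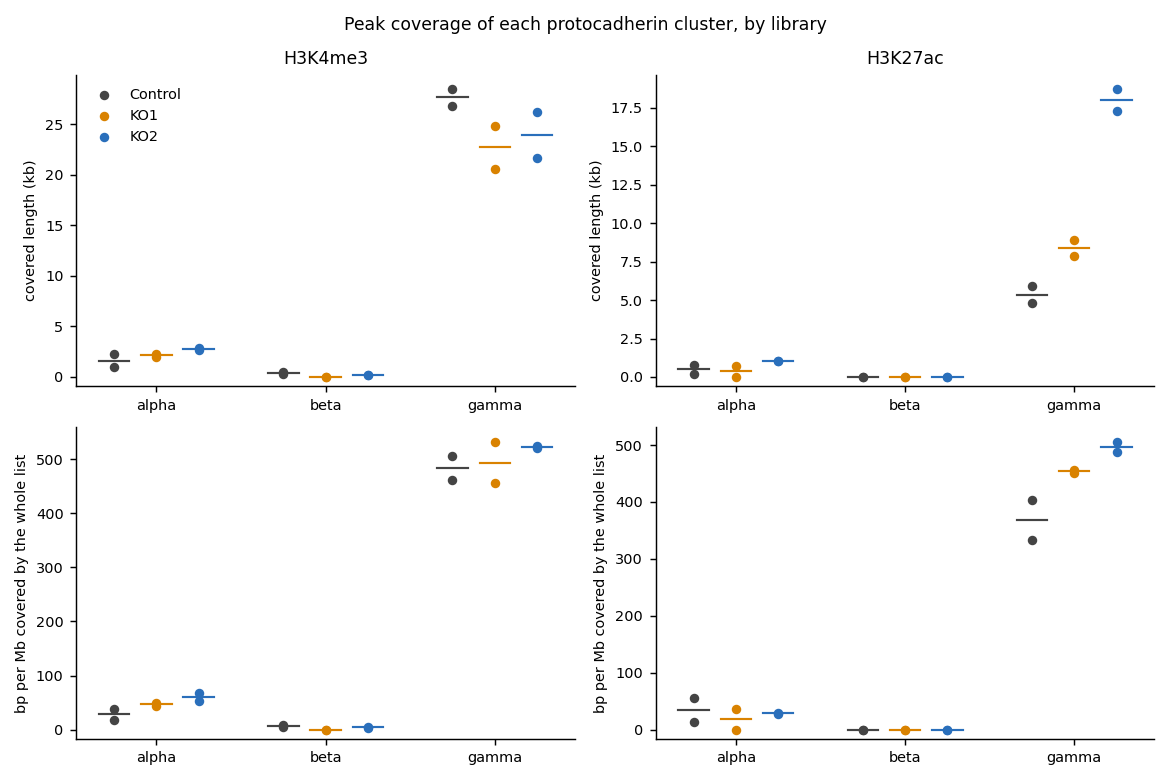
Peak coverage of the alpha, beta and gamma arrays by library in kb (top) and as bp per Mb covered by the whole list (bottom), with bars at means of 2. Gamma H3K27ac stands at 18.03 kb in KO2 against 5.35 kb in Control, and at 497 against 369 bp per Mb of list.

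Inside the gamma array, H3K27ac of Control and KO1 lay mostly past the last start. The stretch from 1 kb after the start of Pcdhgc5 to the end of the array (37820547 to 37841873), which holds the shared constant exons of the array and the non-coding gene Gm29994, held 86.2% and 75.5% of the gamma H3K27ac in Control, 74.7% and 71.5% in the KO1 pair, and 51.6% and 53.4% in the KO2 pair. Start windows held 3.28% and 0%, 5.95% and 0%, and 18.6% and 20.4%. In length the stretch after the last start also had more in KO2, at 9.67 and 9.25 kb, than in Control, at 4.13 and 4.46 kb. H3K4me3 was spread otherwise, with 40.2% to 45.4% of it in start windows in all 6 libraries.

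Joining overlapping peaks of all libraries gave 53 H3K27ac regions between 50 kb before the alpha array and 50 kb after the gamma array. All 53 had a peak in KO2, 19 in Control and 25 in KO1, and 13 were found in all 6 libraries. Of 77139 such regions in the whole genome, 90.9% had a peak in KO2, 36.9% in Control and 48.9% in KO1, and 20.1% were in all 6. In the locus 27 of the 53 had peaks in KO2 alone, beside 44.9% of all regions. Peaks in both KO2 libraries and no other were found at 14 of the 53, beside 14.8% of all regions. Of the 14, 6 lay at member starts. Nearly all (45 of 53) met an H3K4me3 region. Within the arrays the 2 regions with the highest fold over background lay after Pcdhgc5. One at 37834767 to 37837364, 16.5 kb after that start, had 836 and 929 bp (Control), 1768 and 1022 bp (KO1), and 2202 and 2381 bp (KO2), and a peak of up to 15.5-fold. The region over Gm29994 (37826279 to 37828234) had 1721 and 1524, 1795 and 1775, and 1907 and 1886 bp, and the one just before it (37823893 to 37826122) had 1338 and 1393, 1902 and 1575, and 2116 and 2214 bp. These 3 were long in every library, whereas the regions at starts were short or missing outside KO2.

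Between Pcdhga12 and Pcdhgc3, where no member starts, H3K27ac was found in all 6 libraries 6.62 kb after the Pcdhga12 start (198 and 339 bp in Control, 269 and 572 bp in KO1, 842 and 957 bp in KO2) and 5.17 kb before Pcdhgc3 (198 to 325 bp). A region 18.7 kb after the Pcdhga12 start was at 0 in both Control libraries, 559 and 630 bp in the KO1 pair, and 879 and 670 bp in the KO2 pair. This region and one 10.2 kb after the Pcdhgc5 start were the only 2 with a peak in both KO1 libraries and neither Control library. The broadest H3K4me3 region at an alternate start, 3188 bp when joined, ran from Pcdhga12 into this interval, with 1704 to 3188 bp per library.

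In the alpha array H3K27ac formed only 2 regions, 21.5 and 22.4 kb after the Pcdhac2 start and so between that variable exon and the end of the array. The first (37164866 to 37165577) had 596 and 185 bp in Control cells, 335 and 0 bp in KO1 cells, and 469 and 515 bp in KO2 cells. The second (37165790 to 37166454) had 194 and 0, 382 and 0, and 543 and 533 bp. Both were present in both KO2 libraries and missing from KO1 replicate 2.

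Outside the arrays, a peak region 5.88 kb before Pcdhga1 (37655234 to 37656564) had H3K4me3 in all 6 libraries, 619 to 1133 bp, and H3K27ac in the KO2 libraries alone, 208 and 225 bp. A region 25.7 kb after the Pcdhb22 start (37543741 to 37544267) had 232 to 486 bp of H3K4me3 in all 6. The 50 kb after the gamma array, which lie largely in Diaph1, had 2.46 kb ± 0.0120 of H3K4me3 in Control, 3.71 kb ± 0.243 in KO1 and 4.13 kb ± 0.353 in KO2. All 4 knockout libraries exceeded both Control libraries, by 0.57 in mean log2, at the smallest exact permutation p possible, 0.0667. Many spans were tested for both marks, with gaps and flanks among them and no adjustment. In covered length, shares of the list aside, this flank was the only one at that value, so the value carries little weight. Inside the gamma array the same mark had gone the other way in length.

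**Figure D4:**
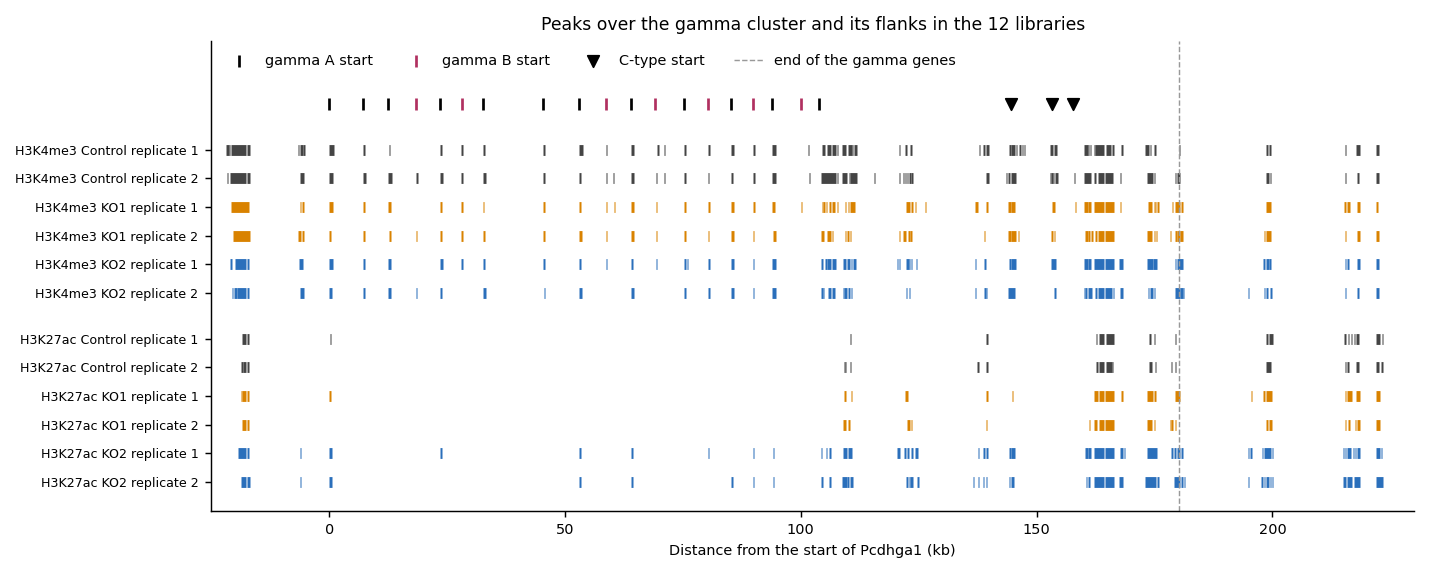
Peaks of the 12 libraries over the gamma array and its flanks by distance from the Pcdhga1 start in kb, with member starts on the top row. H3K4me3 recurs at each gamma A start, and H3K27ac of Control and KO1 lies mainly after the last C-type start, while the KO2 libraries add short peaks at starts.

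The genes around the arrays and those that act on them followed all genes. No strand was known for the 15 neighbours and for some of the other listed genes, so their start was taken as the end with more H3K4me3. Of 15 neighbours, 13 were tested for H3K4me3 and 0 called in either line, and of 11 tested for H3K27ac 9 were called higher in KO2 (limma, beside 80.1% of all windows) and 0 in KO1. The 11 are not separate promoters, because Hars and Hars2, Ndufa2 and Ik, and Hdac3 and Rell2 share nearly the same window. The tested neighbours on either side of the gamma array had smaller differences, with Taf7, which encodes a TFIID subunit and sits between the beta and gamma arrays, at 14.4 points (limma adjusted p = 0.0551) and the formin gene Diaph1 at 9.90 points (0.164). Of 23 regulators of the arrays (CTCF, cohesin and its loaders, DNA and histone methylation), 19 were tested for H3K4me3 and 0 called, and 16 for H3K27ac, of which 13 were higher in KO2 and 0 in KO1. The start of Ctcf had 92.8% and 95.7% H3K4me3 in Control, 94.0% and 91.1% in the KO1 pair, and 91.7% and 92.4% in the KO2 pair. Of 12 partner and processing genes, 6 of 8 tested were higher in H3K27ac in KO2.

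Protocadherins outside the arrays were as sparse in H3K27ac. Of 12, 9 had H3K4me3 at the start in some library and 4 in all 6, and 0 of 6 tested were called in limma in either line. Strand was unknown for Pcdh1, Pcdh11x and Pcdh12, whose starts were set by the same rule. H3K27ac was found at Pcdh1 and Pcdh19 alone. Both entered the test through their KO2 values, so their calls in KO2, beside 80.1% of all windows, carry no weight as a count. Pcdh19, a delta-type protocadherin gene, was at 0 in all Control and KO1 libraries and at 21.7% and 18.9% in KO2, a rise of 20.3 points (limma adjusted p = 0.00189). Pcdh1 had 8.4% in KO1 replicate 1, 17.4% and 9.05% in KO2, and 0 elsewhere (13.2 points, 0.0282).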

How the data were processed

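Each immunoprecipitated library has a peak list of its own from the authors. CASAVA, Trimmomatic 0.38, Bowtie 1.2.2, MACS2 and the build mm10 are named in the submitters' processing notes. Per the labels' protocols, spike-in chromatin was present. The deposited lists give each peak a fold over background (a ratio) and −log10 p and −log10 q, with q under 0.01 throughout, and a display score that was not used. Spike-in scaling and read totals are not given in the sources used here.

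Genes came from a RefSeq table of GRCm38.p6, the assembly of mm10, which has no strand. Coverage of windows of 1 kb on each side of 43683 distinct ends of protein-coding genes, members included, was fitted with limma 3.58.1 (lmFit, and eBayes with trend; R 4.3.3) over the 3 genotypes, where the mean was at least 5%. Differences are in percentage points. Covered length was analysed as log2(bp + 500), which understates changes of low values. Pileups solve a Poisson tail for the authors' fold and p. Overlapping peaks of one mark were joined to regions. Steps were tested on simulated data, where few single changes of up to 40 points were called.

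Values in every library are given for members called in a contrast, the 5 highest for each mark, C-type members and array ends; regions were named where at least 4 libraries, or both of one genotype and none of another, had a peak, and of these the longest or nearest are printed. Members, lists and rules were chosen with earlier results of these data known. Alternatives were another window, filter, normalization, peak threshold, equal list lengths, a replicate block, other gene ends, single lines and leaving out each library. The 3 gene models that join an alpha variable exon to the gamma end are not members. One further list of markers is not reported here.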

Additional observations from a re-analysis of the deposited data

Results flagged for a closer look

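The KO2 and KO1 lines differed in H3K27ac at the 4 gamma starts that could be tested, in a limma contrast of one line against the other. These 4 had enough coverage for the test only through KO2, so the choice of windows favoured a difference, and the values below are a description. KO2 was above KO1 by 46.1 points at Pcdhgc3 (limma adjusted p = 0.00335), 20.99 points at Pcdhga1 (0.0266), 20.8 points at Pcdhga8 (0.00446) and 15.8 points at Pcdhga7 (0.00415). Over all gene-end windows 62.3% were higher in KO2 than in KO1, with a median difference of 20.4 points. After quantile normalization none of the 4 was called in this contrast, where 0.347% of all windows were higher. Groups of 2 libraries are too small for a check of single outlying libraries.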

How the results depend on the processing

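No H3K4me3 member was called under any alternative (lowest adjusted p 0.108; with all libraries and no change 0.250), and no H3K27ac member in KO1. Over all windows 0% to 6.52% were called for H3K4me3. For H3K27ac in KO1 it was at most 0.121% where a member could be tested. These counts of 0 do not set the members apart from other genes. The H3K27ac count of 4 in KO2 (80.1% of all windows higher) became 2 with windows of 2 kb on each side (87.1%), 2 with equal numbers of peaks per list (60.5%), 1 after quantile normalization (3.87%), 7 with no filter (67.1%) and 7 with Control and KO2 alone (76.6%), and 1 to 5 when one library was left out (47.6% to 77.2%). The count of 3 in both lines (52.6%) became 0 after quantile normalization (0%), 1 with equal numbers of peaks (25.8%), and 0 to 3 with one library left out: 0 without Control replicate 1 or 2 (0% each) and 1 without KO2 replicate 1 or 2 (at most 28.5%), where Pcdhga7 and Pcdhga8 fell under the filter. With the 20% filter no member could be tested for H3K27ac. Quantile normalization turned Pcdhga1 (−0.67 points), Pcdhga7 (−2.11) and Pcdhga8 (−0.11) in KO2, and Pcdhga7 (−1.79) and Pcdhga8 (−0.79) in both lines. Replicate numbers did not pair libraries (correlations of deviations −0.00782 to 0.0117). With the replicate block 4 members were called in KO2 (79.3% of all windows higher), 3 in both lines (49.8%) and 0 for H3K4me3 (0%). As a share of the whole list or of chromosome 18, the log2 difference turned to 0.077 or 0.074 for gamma H3K4me3, 0.18 or 0.17 for H3K4me3 of the extended locus (−0.15 in bp), and −0.62 or −0.59 for alpha H3K27ac (0.22 in bp; −0.24 to 0.67 with one library left out, below 0 without Control replicate 2). Beta H3K4me3 (−0.62) turned to 0.011 with a −log10 q of at least 5 or equal numbers of peaks. Members with H3K4me3 numbered 22.5, 21.5 and 21 in Control, KO1 and KO2 with at least 200 bases, and 23.5, 24.5 and 22 in windows of 250 bases on each side. With equal numbers of peaks Control had 23.5. H3K27ac members in KO2 numbered 7, 7.5 and 4 in the same 3 settings. The cause of these changes was not tested. Recovered pileups of 8 to 55 fragments at H3K4me3 summits of members, not plain counts in KO2 replicate 1, limit what a missing peak shows.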

Other observations

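A minor set of H3K4me3 peaks lay far inside the gene, past the start window. Among alternate alpha, beta and gamma B members there were 12 such peaks in 8 genes (Pcdha3, Pcdhb7, Pcdhb14, Pcdhb17, Pcdhb18, Pcdhgb4, Pcdhgb5 and Pcdhgb8), with summits 1643 to 2055 bp after the start, 3.23-fold to 5.42-fold over background and pileups of 11 to 14 fragments. They came from 5 of the 6 libraries, and the 5 peaks in beta genes, from 4 libraries, were the only peaks of either mark inside the beta array. Among gamma A members only Pcdhga12, whose domain runs on into the interval before Pcdhgc3, had peaks past its window. This set was picked out after its values were seen, and whether the likeness of variable exons bears on it was not tested.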
